A study of Rattus norvegicus with 64 samples.

Results

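Among the low-expressed genes of the rat dorsal hippocampus (HPCd), 51 Ensembl gene IDs had a higher mean level in males that received acesulfame potassium (ACE-K) than in control males (CTL) and a lower mean level in ACE-K females than in CTL females. They were chosen from 32623 gene IDs by their CPM, the reads of an ID scaled to the same total of reads on genes (1 mega) in every rat. An ID entered when its mean over all CTL rats was at least 0.5 and below 5 CPM, which left 3182 IDs, and when the log2 ratio of the mean CPM of ACE-K to CTL rats was at least 0.4 in males and at most -0.4 in females. The 51 members are 1.60% of the 3182 IDs. The reverse pattern, with the male and the female sign exchanged at the same thresholds, was met by 6 IDs. The deposited tables list IDs without gene names, and no table used here pairs the IDs with names, so the functions, the sequences and the cell types of the members are not given here and members are named by ID.

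The RNA-Seq experiment used Sprague Dawley rats in 4 groups of 8: CTL males, ACE-K males, CTL females and ACE-K females. ACE-K rats received 15 mg/kg of the sweetener from postnatal day (PN) 26, CTL rats received water, and brains were collected at PN80. Each of the 32 rats gave a tissue punch of the HPCd and a punch of the nucleus accumbens (ACB). A punch holds neurons, glia, vessels and any adjoining tissue, so fewer cells of a type and less RNA per cell cannot be told apart, and the labelled regions could not be checked against marker genes.

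ACE-K is a low-calorie sweetener that activates the sweet taste receptor and is not metabolised for energy. The HPCd is the part of the hippocampus best known for spatial and episodic memory, and the ACB is a ventral striatal region known for its part in motivated behaviour. HTSeq, the program that made the counts, assigns a read to a gene when it overlaps that gene's annotated exons, and sets aside as "no feature" the aligned reads that fall in introns or between genes.

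Each rat had between 14304052 and 28292936 reads on genes in the HPCd and between 255545 and 416869 in the ACB. In the HPCd, 20.3% to 24.3% of the reads of a rat were on no feature. Of the HPCd IDs with more than 100 counts over all rats, 2 were more than 3 times higher in every female than in every male and 6 in every male than in every female.

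The values that chose the members are given first, as a description without a test. The log2 ratio of the mean CPM in males had a median of 0.55 over the 50 members for which it was finite and ranged from 0.40 to 1.64. In females the median was -0.62 over the 51 members and the range was -1.17 to -0.41. The medians over all 3182 IDs of the same CPM range were 0.04 in males and -0.08 in females. The male threshold was passed by 172 of these IDs (5.41%) and the female threshold by 231 (7.26%), so the members were 29.7% of the former list and 22.1% of the latter. On the other side, 136 IDs had a male ratio of at most -0.4 and 20 had a female ratio of at least 0.4. Just inside the male threshold were members at 0.40004 and 0.402, and just outside it were IDs at 0.397 and 0.395. In females the nearest members were at -0.409 and -0.434 and the nearest IDs outside at -0.394 and -0.392.

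**Figure D1:**
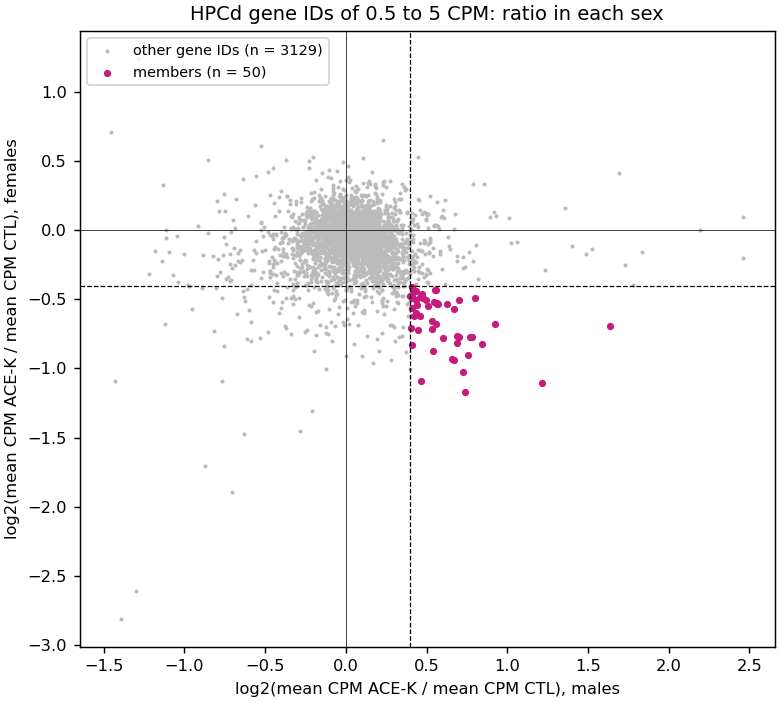
Log2 ratio of mean CPM, ACE-K over CTL, in males (x axis) and in females (y axis) for HPCd gene IDs of 0.5 to 5 CPM, with 1 point per ID whose ratios are both finite, members coloured, and dashed lines at 0.4 and -0.4. Most IDs lie around 0 in both sexes, and the 50 members shown fill the lower right corner.

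The members were low even for this range. Their mean over CTL rats was between 0.507 and 4.83 CPM with a median of 1.11, and 24 of them (47.1%) were under 1 CPM, against 25.2% of the 3182 IDs. The median count of a member in a rat was between 9 and 96 and had a median of 18.5, at which counting error alone has a coefficient of variation of 23.2%. In no member did the ACE-K and CTL groups separate fully in either sex. Among all 3182 IDs, the share without overlap was 0.0314% in males and 0% in females.

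The summed CPM of the 51 members, in each rat the share of reads on genes that the members took, showed how the rats of each group were spread. In CTL males it was lowest at 43.8, with a median of 61.2 and a highest value of 73.4. In ACE-K males the corresponding values were 54.7, 85.5 and 125. CTL females had the widest span, from 57.7 over a median of 90.2 to 168, and ACE-K females ranged from 41.7 over 66.9 to 82.8. The groups overlapped in both sexes. The lowest, the median and the highest value were all higher in ACE-K than in CTL males and in CTL than in ACE-K females, with the widest distance at the highest value. The mean ± SD (n = 8 each) was 60.3 ± 9.19 in CTL males, 89.7 ± 25.4 in ACE-K males, 100.4 ± 39.6 in CTL females and 65.3 ± 14.7 in ACE-K females.

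**Figure D2:**
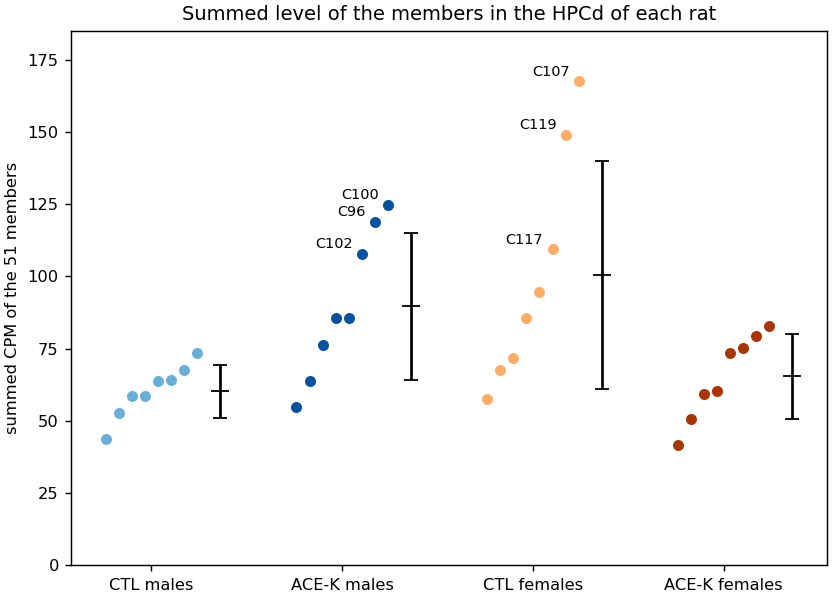
Summed CPM of the 51 members (y axis) in the HPCd of each rat, by group (x axis), with 1 point per rat in ascending order and the mean ± SD of the group (n = 8) to its right. The labelled rats, C107, C119 and C117 among CTL females and C100, C96 and C102 among ACE-K males, are those above 100 summed CPM, and no CTL male or ACE-K female is above 82.8.

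A few rats recurred as the highest. Of 51 members, 21 had their highest CPM of all 32 rats in the CTL female C107 and 15 in the CTL female C119, followed by the ACE-K male C100 with 6. Within the ACE-K males, C100 was highest for 22 members, C96 for 12 and C102 for 8. Within the CTL males, C105 was highest for 16 members, C91 for 14 and C101 for 10, and within the ACE-K females C112 for 16, C110 for 12 and C116 for 10. The rule itself favours IDs with high rats among CTL females and ACE-K males. How often the other IDs of the CPM range were highest in these rats is not given here. C107 had the fewest HPCd reads on genes of the 32 rats (14304052) and C100 the next fewest (16078642), while C119 had 23916610. Counts as low as those of the members vary most in the libraries with the fewest reads.

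The rule was also applied without C107, C119, C100 or C96. The omission of several rats together was chosen after the data were seen. Without C107 it gave 39 IDs, 35 of them among the 51, and without C119 it gave 40 IDs, 34 of them among the 51. Without both, 23 IDs met the rule, 17 of the 51 were kept, and the median female log2 ratio of the 51 members was -0.34 in place of -0.62. In males, 36 IDs met the rule without C100, with 34 of the 51 kept, and 40 without C96, with 37 kept. Without both, 34 IDs met it, 25 of the 51 were kept, and the median male ratio was 0.38 in place of 0.55. Without all 4 rats, 10 of the 51 remained in a list of 19.

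Of the members with the largest ratios in both sexes, ENSRNOG00000015541 and ENSRNOG00000040384 come first by the smaller of their absolute ratios. ENSRNOG00000015541 was rare. Its CPM (lowest, median, highest) was 0.180, 0.245 and 0.584 in CTL males, 0.289, 0.616 and 1.60 in ACE-K males, 0.275, 0.636 and 1.47 in CTL females and 0.0573, 0.405 and 0.655 in ACE-K females. These values rest on 1 to 40 reads per rat, and the log2 ratios were 1.21 in males and -1.11 in females. ENSRNOG00000040384 was more abundant and had 0.546, 2.03 and 2.80 CPM in CTL males and 1.34, 3.40 and 5.47 in ACE-K males. Its values in females were 1.26, 2.67 and 8.53 CPM in CTL rats and 0.631, 2.38 and 3.499 in ACE-K rats. Its log2 ratios were 0.84 and -0.82. Of the 8 CTL females, 3 were above every ACE-K female (C107, C117 at 6.17 and C119 at 5.35 CPM), and the other 5 lay within the range of the ACE-K females.

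The most abundant members were ENSRNOG00000023148 and ENSRNOG00000051291. ENSRNOG00000023148 had 3.34, 3.60 and 4.85 CPM in CTL males and 2.34, 6.53 and 8.37 in ACE-K males. In females it had 3.04, 4.87 and 12.9 CPM in CTL rats and 2.58, 4.06 and 5.07 in ACE-K rats. ACE-K males thus included the lowest as well as the highest males, and the ratios were 0.57 and -0.53. ENSRNOG00000051291 was the member closest to the male threshold, with ratios of 0.40 and -0.48. It had 2.00, 4.02 and 4.74 CPM in CTL males, 2.54, 5.02 and 7.55 in ACE-K males, 3.33, 4.99 and 10.1 in CTL females and 3.21, 3.53 and 5.62 in ACE-K females. For both IDs the highest of the 32 rats was C107.

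One member, ENSRNOG00000055225, has a pattern of its own. It had 0 counts in each of the 8 CTL males, 0 of 157814917 reads on genes, which allows up to 0.0190 CPM. The ACE-K males together had 4 counts, and the highest of them had 3 counts (0.110 CPM). The male ratio was infinite only because the CTL mean was 0, and no male fold is given. In CTL females it had 2.79, 4.225 and 7.27 CPM and in ACE-K females 1.81, 2.94 and 5.44 CPM, a log2 ratio of -0.64. It is the only member among the 8 IDs that were more than 3 times higher in every rat of 1 sex.

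The members varied together from rat to rat. Covariation was measured as Pearson's r of log2(CPM + 0.5) over rats, after subtraction of group or sex means, and is given without a test, since the members share libraries and since a rat that is high for many IDs also raises its group's mean and so bears on which IDs were chosen. Among the 16 CTL rats, with the mean of each sex subtracted, the mean r over all pairs of members was 0.479, and 88.1% of the pairs were above 0. Among the 16 ACE-K rats it was 0.430 with 88.2% of the pairs above 0. For all pairs of the 3182 IDs the mean was 0.0670 among CTL and 0.0667 among ACE-K rats. By group (n = 8, 50 members, without ENSRNOG00000055225), the mean r was 0.220 in CTL males, 0.480 in ACE-K males, 0.584 in CTL females and 0.370 in ACE-K females. The same mean over all IDs of the range was 0.0520, 0.0959, 0.0770 and 0.0283. Members varied together more closely in the pair of groups with the higher means, and above the level of all IDs also in the other pair. Without C107 and C119, the mean r among CTL rats was 0.299.

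**Figure D3:**
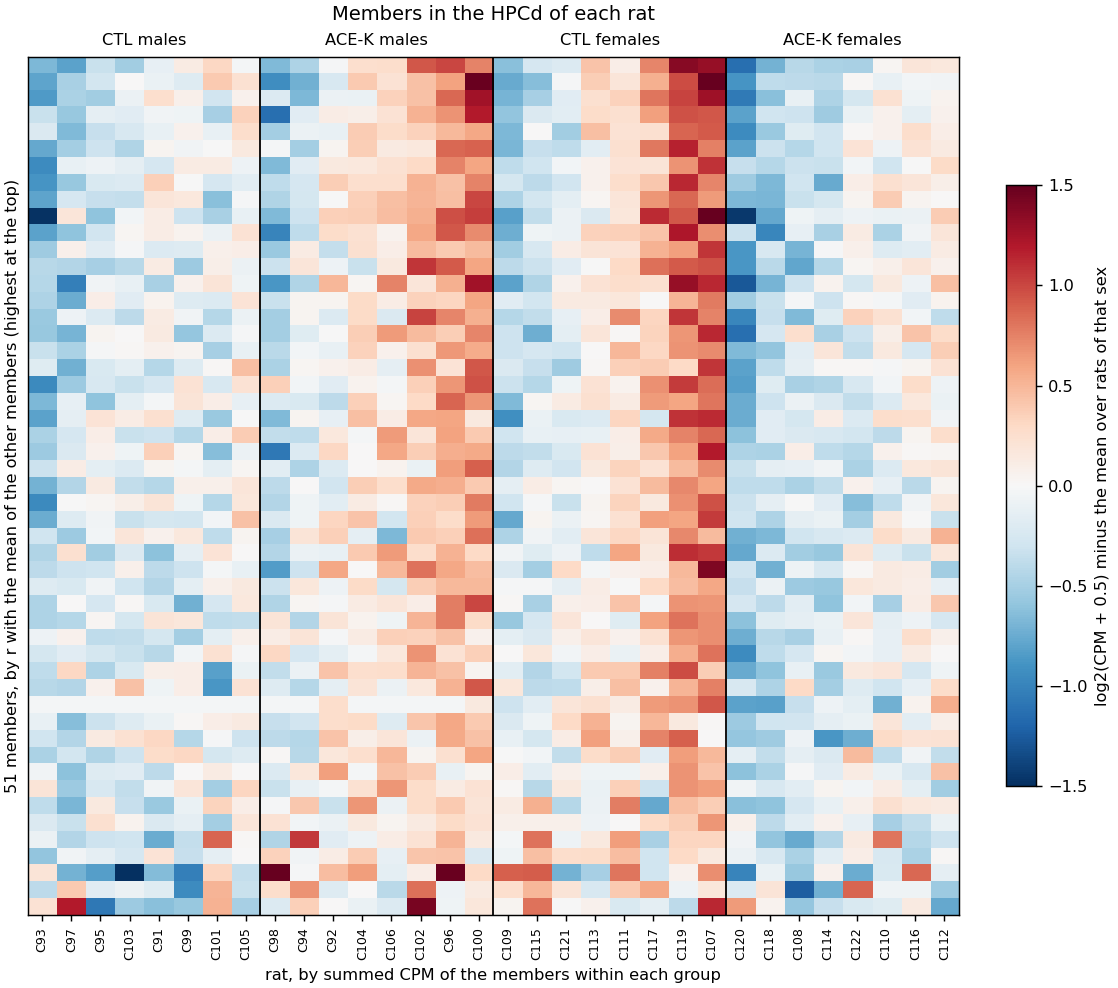
Log2(CPM + 0.5) of the 51 members (rows, by their r with the mean of the other members, highest at the top) in the HPCd of the 32 rats (columns, by group and by summed CPM within it), minus the mean over rats of the same sex, with red above and blue below that mean. Most rows are red together in C107 and C119 and in C100, C96 and C102, while the 5 lowest rows, with r under 0.3, follow no common order.

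Most members belonged to the common pattern, and a few did not. Over 32 rats with the 4 group means subtracted, the r of a member with the mean of the other members had a median of 0.774. It was at least 0.5 in 42 members, between 0.3 and 0.5 in 4 and under 0.3 in 5, with -0.0801 as the lowest and 0.935 as the highest. None of the 5 had its highest value in C107 or C119, whereas 36 of the other 46 members did. The members' mean lay farthest above its group mean in these 2 rats (0.594 and 0.491 log2 units), so this contrast comes with the split by r. The pattern was not limited to the members. Of the other 3131 IDs of the range, 253 (8.08%) had r of at least 0.5 with the mean of the members, with a median of 0.129. Of all 14129 IDs outside the list with a mean of at least 0.5 CPM over the 32 rats and no upper limit, 509 had r of at least 0.7 and 4 had r of at most -0.7. The ratios of these 509 IDs were small, with medians of 0.15 in males and -0.19 in females. Over all IDs with at least 0.5 CPM the medians were 0.016 and -0.017. Of the 509 IDs, 491 had a male ratio above 0 and a female ratio below 0. The share of all IDs with these 2 signs is not given here, so this count has no background to be read against.

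A technical measure of the same libraries moved with the members. The share of HPCd reads on no feature was highest in C107 (24.3%), and the next were C117 (23.04%), C119 (23.02%), C100 (22.9%) and C96 (22.8%). By group its lowest, median and highest values were 20.4%, 21.6% and 22.4% in CTL males, 20.7%, 21.9% and 22.9% in ACE-K males, 21.01%, 21.7% and 24.3% in CTL females and 20.3%, 21.3% and 22.1% in ACE-K females. In males the mean was 21.9% ± 0.787 in ACE-K and 21.6% ± 0.630 in CTL rats (SD, n = 8 each, 2-sided exact permutation p = 0.437). In females it was 21.3% ± 0.651 in ACE-K and 22.2% ± 1.13 in CTL rats (exact permutation p = 0.0695, adjusted p = 0.417 by Benjamini-Hochberg over the 6 such tests made), and without C107 the exact permutation p was 0.139. The share thus lay in the direction of the members in both sexes. The difference of the means, ACE-K minus CTL, was 0.288 percentage points in males, less than the SD of either group. In females it was -0.902, more in size than the SD of the ACE-K rats and less than that of the CTL rats.

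Within groups, the members' mean followed this share closely. Over 32 rats with group means subtracted, the mean deviation of the 51 members had r = 0.815 (Spearman's rho 0.775) with the share, and r = 0.771 without C107 and C118, the 2 rats with the most extreme shares. In each group of 8 the r was 0.643 in CTL males, 0.906 in ACE-K males, 0.919 in CTL females and 0.512 in ACE-K females. Of the members, 39 had r of at least 0.5 with the share and 46 had r above 0, against 6.19% and 60.2% of the 3182 IDs. In the 16 CTL males and ACE-K females alone, whose high rats weigh against the rule, 45 of 51 members were above 0 with a median r of 0.373. There, 42.0% of the 3182 IDs were above 0, with a median of -0.0672. The r of the members' mean deviation was -0.578 with the share of reads that HTSeq found ambiguous, -0.0838 with log2 library size and -0.205 with the library number in the column names. The 5 members with r under 0.3 with the other members were the same 5 whose r with the no-feature share was below 0 (-0.273 to -0.0485).

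**Figure D4:**
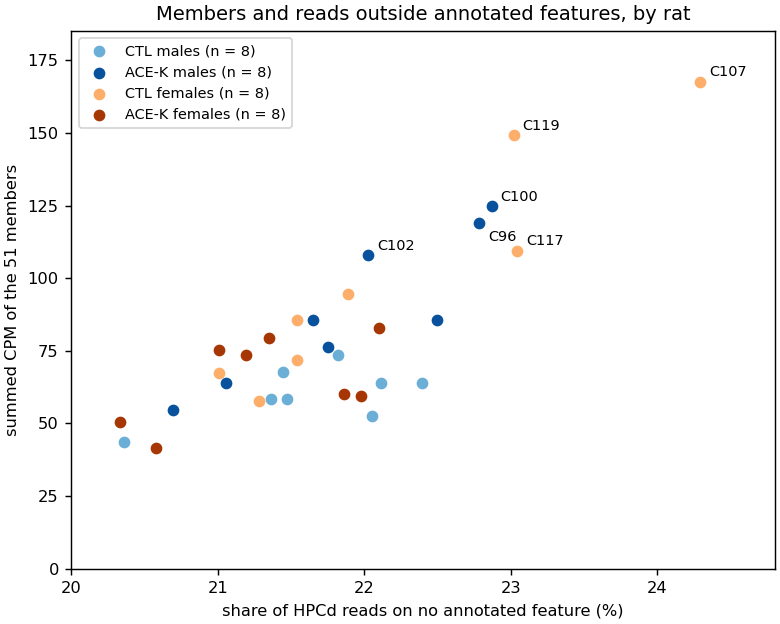
Share of HPCd reads on no annotated feature (x axis, %) and summed CPM of the 51 members (y axis) in each of the 32 rats, coloured by group. The rats above 100 summed CPM all lie at shares of 22.0% or more, up to C107 at 24.3% and 168 summed CPM, and the lowest rats in both measures come from all groups but the CTL females.

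The share was also put into the edgeR fit of all genes, an alternative added after the data were seen. In the fit of the 4 groups with the share as a covariate, 6.37% of all 16012 IDs had an adjusted p under 0.05 for the share (Benjamini-Hochberg, quasi-likelihood test). The members' coefficients are given without a test. The members' median coefficient was 0.43 log2 units per percentage point of the share, with a range of -0.23 to 0.80, and was above 0 in 46 members. The largest was that of ENSRNOG00000040384, 0.80 ± 0.07 (SE, edgeR). As for the correlations, the rats that bear on this coefficient also bear on the choice of the members.

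With the share in the fit, the fitted ACE-K against CTL differences of the members were smaller, more so in females. These are the contrasts of the rule and carry no test. The share lay in the direction of the members in both sexes, so the fit tends to place members with a coefficient above 0 nearer 0. The smaller differences thus restate the members' correlation with the share and add nothing separate from it. In females the median fitted log2 fold change was -0.57 without and -0.19 with the share, 46 of 51 members were nearer 0, and the number at or past -0.4 was 45 without and 10 with it. In males the median was 0.52 without and 0.39 with the share over 50 members, 45 were nearer 0, and the number at or past 0.4 was 40 without and 22 with it. No male member changed sign, and in females 5 were above 0 with the share. The 5 members outside the common pattern, a split made after their values were seen, had medians of -0.62 without and -0.72 with the share in females, and of 0.44 and 0.50 in males. These 5 are the members whose r with the share was below 0, so their shift away from 0 comes with the split. Whether the share, or what sets it, has a part in the members' ratios was not tested.

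**Figure D5:**
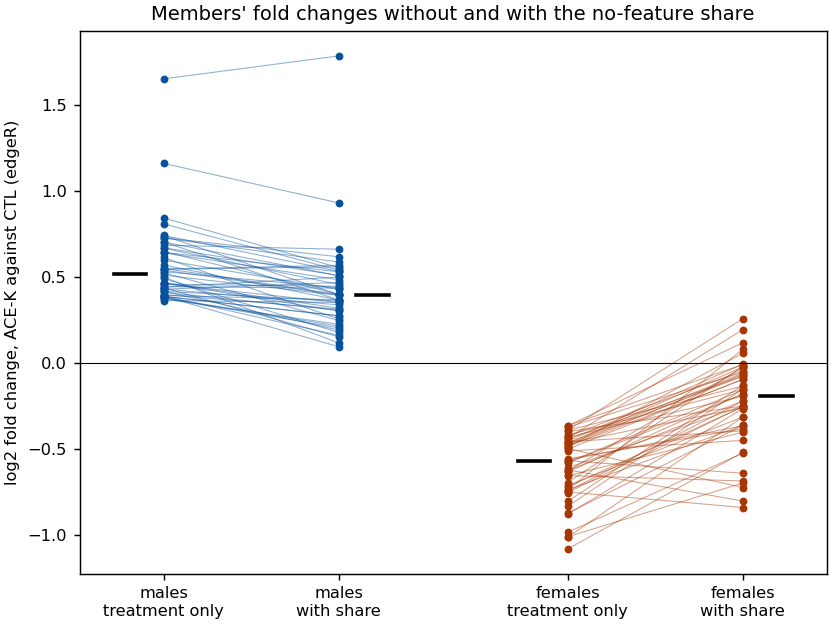
Log2 fold change of ACE-K against CTL rats (y axis, edgeR) of each member in males (50) and females (51), from a fit of treatment alone and from a fit that adds the no-feature share of each rat, with a line joining the values of 1 member and a black bar at the median. The median of the males goes from 0.52 to 0.39 and that of the females from -0.57 to -0.19.

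The sex of the rats, averaged over ACE-K and CTL, was tested, since the rule did not use it, with the exception of 1 member named next. With ENSRNOG00000055225 left aside, 2 of the other 50 members were called for sex, against 2.22% of the 16012 IDs tested. The call took the study's thresholds for suggestive DEGs (unadjusted p under 0.05, log2 fold change of 0.4 or more in size). At an adjusted p under 0.05 no other member was called, against 0.899% of all IDs. ENSRNOG00000055225 entered the list only because it was at or near 0 in males. Its sex difference was thus fixed by the choice and is given without a test. It had a median of 3.56 CPM (1.81 to 7.27) in the 16 females and of 0 (0 to 0.110) in the 16 males, and the sexes did not overlap.

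The 2 members called for sex were lower in females and did not pass the adjustment. ENSRNOG00000052981 had 0.109, 0.610 and 1.26 CPM (lowest, median, highest) in females and 0.350, 0.902 and 1.66 in males, with a log2 fold change of -0.64 ± 0.23 (edgeR, SE, adjusted p = 0.225). ENSRNOG00000012660 had 0.230, 0.697 and 1.68 CPM in females and 0.478, 1.04 and 2.89 in males, with a log2 fold change of -0.63 ± 0.24 (edgeR, SE, adjusted p = 0.266). Both ranges overlapped between the sexes, and both members were among those that followed the others weakly, with r of 0.361 and 0.130. Over the 51 members the median log2 difference of females from males was 0.09, with 41 members above 0, beside -0.01 and 46.9% above 0 over all IDs. As the members vary together and many are highest in the females C107 and C119, the 41 are not independent. In the ACB the median over the 10 members tested was -0.15, with 3 above and 7 below 0.

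The ACB of the same rats gave measurements that the rule did not use, at a much lower depth. The members had a mean under 1 count per rat in 38 cases, 5 had no count in any rat, and 4 IDs held 72.0% of their ACB counts, while these 4 held 17.8% of their HPCd counts. Only 9 members in each sex passed the filter, which asked for 5 or more normalized counts in 3 or more rats, so the ACB says little of the others. In males 0 of 9 members were called for ACE-K at the same thresholds, and 0 had an unadjusted p under 0.05, with edgeR as with DESeq2, against 4.12% of 5262 IDs called. In females 1 of 9 met the thresholds, where 6.31% of 5154 IDs were called. That member had passed the filter only through CTL females, so it is not counted as a test result. The members' fitted log2 fold changes lay between -0.83 and 0.64 in males, 3 above and 6 below 0, and between -1.14 and 0.43 in females, 5 above and 4 below 0. The 0.64 was that of ENSRNOG00000023148, which had 24 counts in the ACE-K male C106, where the median of the ACE-K males was 3.5. Without C106, 0 of 9 members were called in males.

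The ACB member that met the thresholds in females was ENSRNOG00000026040. It had 0, 3.5 and 8 counts (lowest, median, highest) in CTL females and 1, 2 and 4 in ACE-K females, which overlapped. It passed the filter only through the CTL females C107, C109 and C111, with 7, 7 and 8 counts, so that its difference was in part fixed by the filter and is given as a value, a fitted log2 fold change of -1.14 ± 0.50 (edgeR, SE). It did not pass the adjustment. Without the ACB library of C107 it no longer passed the filter, and 0 of the 8 members then tested were called. The member with the most ACB counts, ENSRNOG00000032946, had 28, 38.5 and 50 counts in CTL males, 26, 40 and 62 in ACE-K males, 31, 42 and 46 in CTL females and 27, 34 and 54 in ACE-K females. Its log2 fold change was 0.21 ± 0.18 in males (edgeR adjusted p = 0.975) and -0.22 ± 0.14 in females (edgeR adjusted p = 0.755).

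The difference between the sexes in the effect of ACE-K (Treatment × Sex) was tested in the ACB in a fit of the 4 groups. Of the 10 members tested, 0 had an unadjusted p under 0.05 with edgeR and 0 with DESeq2, against 8.59% of 5950 IDs with edgeR. The fitted difference between female and male log2 fold changes had a median of 0.24 over these 10 members, with 6 above and 4 below 0, where the pattern of the HPCd would place them below 0. The summed ACB CPM of the members had medians of 431 in CTL males, 432 in ACE-K males, 432 in CTL females and 413 in ACE-K females, with ranges that overlapped (371 to 502, 413 to 451, 383 to 466 and 336 to 443). The rats highest for the members in the HPCd were not the highest in the ACB. C107 had 440 and C119 389 summed ACB CPM, C100 had 413 and C96 426, and over 32 rats with group means subtracted the r between log2 summed CPM of the regions was -0.0305 (rho -0.0576), and -0.00928 without C107 and C119. As 4 IDs make up most of the ACB sum, this compares mainly those.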

How the data were processed

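Bulk RNA-Seq of HPCd and ACB punches was made from the same 32 rats (64 samples). After FastQC and Trimmomatic, the authors aligned reads with STAR to Rnor6.0 and deposited raw HTSeq counts per gene. Versions, annotation release and strand setting are not given in the sources used here, so reads of overlapping or antisense genes may be shared. The HPCd table also holds 5 HTSeq summary rows, 2 of them above 0 (20.9% to 24.8% of reads), which were left out of library sizes and tests.

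CPM here is relative to a rat's counts on genes. Tests used edgeR 4.0.16 (R 4.3.3, TMM, quasi-likelihood, Benjamini-Hochberg over all IDs with 5 or more normalized counts in 3 or more rats), within each sex for ACE-K against CTL and over 4 groups for sex and interaction. DESeq2 1.42.0 was an alternative. Fits were tested on simulated data. Rats of a group differed by more than sampling noise (lowest chi-square per degree of freedom 1.58), and each was 1 replicate. Intervals and floors cover counting error only.

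The members and lists were chosen with earlier results of these data known. The naming rule asked for the 10 largest and 5 most abundant members and the members called. Since IDs carry no symbols, the first lists were cut to 2 each, and marker and collagen lists were not applied.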

Additional observations from a re-analysis of the deposited data

Results flagged for a closer look

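In groups of 8 rats, 52 sets of values (4 measures of the libraries and 9 named members, in 4 groups) were searched for a rat whose gap to the next, as a share of the group's range, exceeded Dixon's 95% critical value, and 5 had one. Chance flags about 1 in 20 such sets, and low counts give wide gaps. The CTL female C107 had 12.9 CPM of ENSRNOG00000023148, where the next CTL female had 6.61 and the lowest 3.04. The CTL male C93 had 2.00 CPM of ENSRNOG00000051291, below the next at 3.56. ENSRNOG00000012660 stood apart in 2 groups, with 2.50 CPM in the CTL male C101 (next 1.16) and 1.66 CPM in the ACE-K female C110 (next 0.860). The ACE-K female C112 had 28.3 M counts on genes in the HPCd (M, mega), where the next had 22.1 M.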

How the results depend on the processing

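Of 99 alternatives computed, 86 left a result in the same direction and size class, 13 moved it and 0 reversed it. The size class allowed a count to change by a fixed factor and a value to shift by less than its spread. A count or a summed CPM could not be reversed, and a list of the same class could hold other IDs. The class also held the members' median log2 fold change in HPCd females without C107 and C119, -0.33 in place of -0.57. The rule, which took 51 IDs or 1.60% of those in its CPM range, took 0.880% (28) at a threshold of 0.5 and 3.61% at 0.3. CPM relative to the TMM-normalized library size gave 43 IDs, all among the 51, and group medians in place of means gave 68, of which 25 were among the 51. With 1 rat left out at a time it gave 36 to 64 IDs and kept 34 to 51 of the members, under 40 of them without C93, C96, C100, C107 or C119. Without C107 and C119 it took 0.725% (23), and without C96 and C100 as well 0.599% (19). The mean r of the members among CTL rats was 0.220 in males alone and 0.589 in females alone (all 51 members), 0.299 without C107 and C119, and 0.417 to 0.5003 with 1 CTL rat left out. Over all IDs, the share called for ACE-K in HPCd females was 1.32% (34 higher and 173 lower). It was 0.594% with the no-feature share as a covariate (48 and 45), 0.651% without C107 and C119 (50 and 51), and 0.859% to 0.931% without either of these rats. In HPCd males it was 1.34%, and 1.31% with the no-feature share. The members' median log2 fold change in HPCd females was -0.19 with that share. These calls over all IDs used unadjusted p, and 0 IDs had an edgeR adjusted p under 0.05 in either sex. In the ACB, the count of members called in females was 0 of 8 without C107, where ENSRNOG00000026040 fell below the filter, and without a filter on low counts 2 of 46 members had an interaction p under 0.05 (1 in each direction). Calls for sex, here with ENSRNOG00000055225 counted, numbered 3 under each alternative but the no-feature share, with 4. The alternatives for collagen and marker lists were not run. No paired analysis was possible because the groups compared by a test, all within a region, hold different rats. The HPCd and ACB of the same rats were not compared by a test. Depth limits the ACB, where 38 members averaged under 1 count per rat.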
